A study of Drosophila melanogaster with 4 samples.

Results

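The Antennapedia complex is one of the Hox gene clusters of Drosophila melanogaster, and its 8 members described here are lab, pb, zen, bcd, Dfd, Scr, ftz and Antp, in their order along chromosome arm 3R. The complex was taken as 3R:2480000-2830000 of FlyBase release 5, a window of 350 kb with lab at its low end and Antp at its high end, and 300 kb on each side served as flanks. Called regions of the histone mark H3K27me2 that overlap this window numbered 16 of 12968 in ChIP replicate 1, 13 of 11483 in ChIP replicate 2 and 23 of 17184 in the list that the authors made for the replicate set, called the combined list here.

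ChIP-seq, sequencing of chromatin fragments pulled down with an antibody (here Ab24684, against H3K27me2), was run on 2 ChIP samples, and 2 inputs accompany them. All 4 came from embryos of the wild-type strain Oregon-R-modENCODE aged 14 to 16 h, crosslinked with 1.8% formaldehyde. They were intact embryos rather than sorted cells, so each list averages over all cell types, including segments in which a given Hox gene is on and segments in which it is off. The lists give no read numbers, so the depth behind each region is unknown. A stretch without a region is therefore called uncalled, not unmarked.

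Polycomb repressive complex 2 methylates lysine 27 of histone H3. Its trimethylated product, H3K27me3, is known for covering silenced Hox genes, whereas the dimethylated product, H3K27me2, is known for lying widely over the rest of the chromatin. Hox genes encode homeodomain transcription factors that give segments along the body axis their identity, and Polycomb repression keeps them silent outside their own domains.

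By their roles, the members fall into 2 groups. The Hox genes proper are lab, which acts in the anterior head and the midgut; pb, needed for the adult mouthparts; Dfd, which specifies mandibular and maxillary segments; Scr, which acts in the labial and first thoracic segments and in salivary glands; and Antp, which specifies thoracic identity. The other 3 are homeobox genes that no longer act as Hox genes in flies: zen patterns dorsal tissue and the amnioserosa, bcd encodes the maternal morphogen of the anterior embryo, and ftz is a pair-rule segmentation gene. All 8 were found by symbol in the RefSeq gene table of release 6. That table lists 43 genes from lab to Antp, of which 19 encode proteins, and the 35 that are no members include zen2, Ama, mir-993, mir-10 and 7 cuticle genes named Ccp84A. The cuticle genes are among the 9 genes between lab and pb, and 10 genes, zen and bcd among them, lie between pb and Dfd. The table is of another release than the regions, so it was used for names and order only. No region below is assigned to a single gene, and no member has a value of its own.

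H3K27me2 regions were scarce over the complex in both replicates. They covered 44.4 kb, or 12.7% of the window, in replicate 1 and 26.8 kb, or 7.66%, in replicate 2. The mean was 10.2% ± 3.55 in the window, against 23.5% ± 3.59 in both flanks together and 27.5% ± 4.67 in the rest of 3R (SD, n = 2). In each replicate the window lay below each flank, and the higher of the window's values lay below the lower of the flanks' values. In replicate 1 the covered share was 12.7% in the window, 26.4% in the flank on the lab side and 25.6% in the flank on the Antp side. In replicate 2 it was 7.66% in the window, 21.8% in the flank on the lab side and 20.1% in the flank on the Antp side. The combined list gave 16.5% in the window, 45.9% on the lab side and 39.3% on the Antp side.

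The difference between the window and its flanks was almost the same in each replicate, at -13.3 percentage points in both and -13.3 ± 0.048 as their mean (SD, n = 2). In other settings the replicates lay further apart. They had -14.6 and -17.6 points with flanks of 100 kb, and -9.75 and -6.05 points with regions scoring below their list's median dropped. As a ratio, the window had 0.487 of the flanks' covered share in replicate 1 and 0.366 in replicate 2. Against the rest of 3R the difference was -18.1 points in replicate 1 and -16.5 points in replicate 2. The combined list gave -26.1 points against the flanks and -32.3 points against the rest of 3R. That list also covered more of 3R, at 48.4% against 30.6% in replicate 1 and 24.0% in replicate 2. Its ratio to the flanks was 0.387, between those of the replicates. Its ratio to the rest of 3R was 0.338, against 0.411 in replicate 1 and 0.316 in replicate 2. No test over samples was run, because flipping the signs of 2 differences (exact permutation, two-sided) gives at best p = 0.5. Whether these 2 samples came from separate embryo collections is not given in the labels, and the SD may reflect technical spread alone. Sequence that reads could not be mapped to would also be uncalled, and its part in the low share was not tested.

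Fewer regions per Mb were called in the window than elsewhere on the arm, whereas median width was close to that of 3R in replicate 1 and somewhat lower in replicate 2. Regions overlapping the window numbered 45.7 per Mb in replicate 1, against 103 per Mb in the flanks and 108 per Mb over 3R. In replicate 2 there were 37.1 per Mb in the window, against 96.7 per Mb in the flanks and 96.9 per Mb over 3R. Median region width in replicate 1 was 2177 bp in the window, 2162 bp in the flanks and 2153 bp over 3R. In replicate 2 it was 1738 bp in the window, 1925 bp in the flanks and 2000 bp over 3R. The combined list had both fewer and narrower regions in the window, with 65.7 per Mb and a median of 1775 bp, against 125.0 per Mb and 2873 bp in the flanks and 135 per Mb and 2497 bp over 3R.

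**Figure D1:**
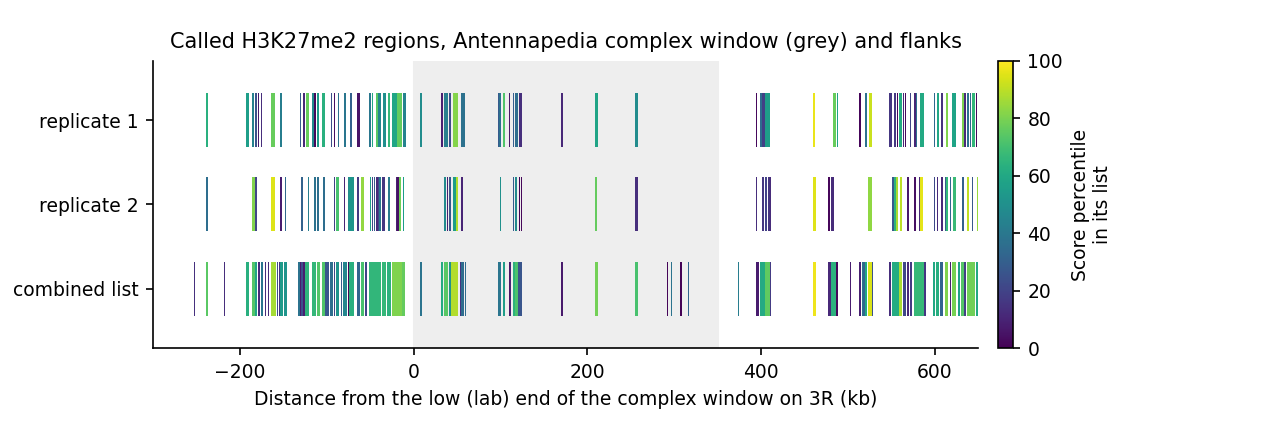
Called H3K27me2 regions in both replicates and the combined list, by distance in kb from the low (lab) end of the complex window (grey) on 3R; each bar is a region to scale, coloured by its score percentile within its list. The window holds fewer regions per kb than both flanks as a whole, which have sparse parts of their own; in the window replicate 1 has 16, replicate 2 has 13 and the combined list has 23.

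Set beside all windows of its length on 3R, placed every 1 kb, the complex lay near the low end of the distribution. Of 27556 windows, 2.00% were lower than the complex in replicate 1 and 1.51% in replicate 2, and 1.66% were lower by the combined list. The median window of the arm had 30.3% covered in replicate 1 and 23.6% in replicate 2, and the combined list gave 48.4%. Many of the lower windows are shifted copies of the complex window itself. When windows sharing any base with it were left out, 1.27% of 26856 windows were lower in replicate 1, 0.931% in replicate 2 and 0.994% by the combined list. The mean percentile of the replicates was 1.75 among 3R windows and 4.99 among windows of all 5 major arms (5.93 in replicate 1 and 4.05 in replicate 2). It was 2.64 with the window shortened by 50 kb at each end and 1.00 without the regions that score below their list's median. Such windows overlap each other, so these percentiles describe each list and are no test.

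The windows with a lower share than the complex lay in the same 3 stretches of 3R in every list. One is the complex with its Antp-side surroundings, from 2488001 to 3046001 in replicate 1 and from 2515001 to 3031001 in replicate 2. Another runs from 12392001 to 12962001 in replicate 1 and from 12416001 to 12931001 in replicate 2. It holds the lowest window of 3R in all 3 lists, at 12480001 to 12830001, with 0.199% covered in replicate 1, 0.758% in replicate 2 and 1.56% by the combined list. This part of 3R is known to hold the Bithorax complex, the Hox cluster of the posterior body, although no annotation of release 5 was used here to place its genes. The remaining stretch runs from 17079001 to 17548001 in replicate 1, where its lowest window had 5.40% covered, and from 17107001 to 17540001 in replicate 2, where its lowest window had 4.22%. At the other extreme, the highest window of the combined list, from 18585001 to 18935001, had 49.8% covered in replicate 1, 38.9% in replicate 2 and 78.9% by the combined list. The Antennapedia complex was not as empty of called regions as the lowest window, at 12.7% where that window had 0.199% in replicate 1, and at 7.66% where it had 0.758% in replicate 2.

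**Figure D2:**
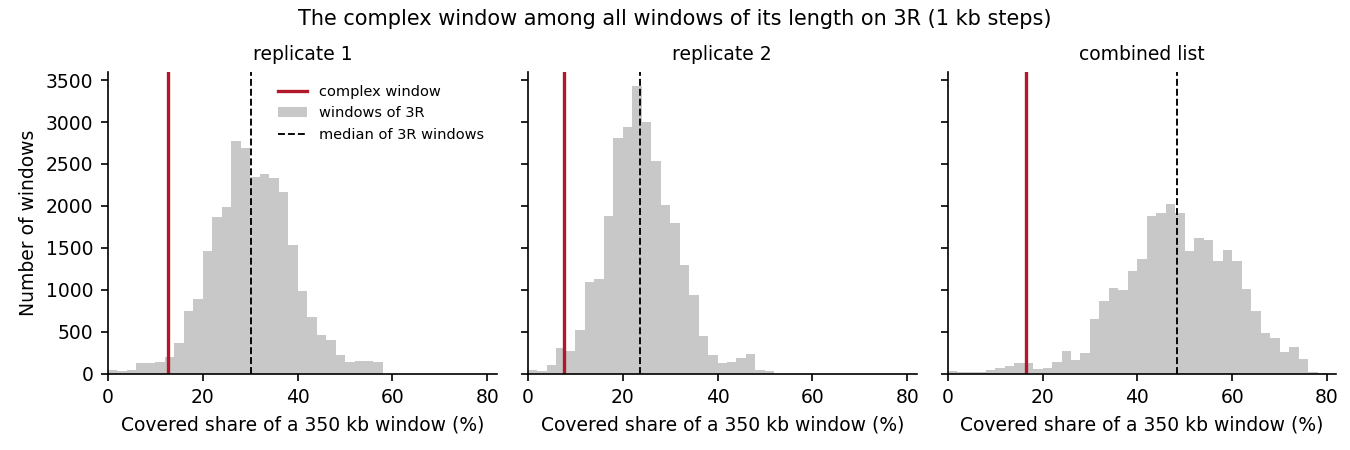
Number of 350 kb windows of 3R, placed every 1 kb, by covered share in percent, for each list; the red line is the complex window (12.7%, 7.66% and 16.5%) and the dashed line the median of all 3R windows (30.3%, 23.6% and 48.4%). The complex lies in the low tail of each distribution.

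In bins of 10 kb, 3 of the 35 bins of the window had at least 50% of their length covered in replicate 1, where 26.4% of all bins of 3R did. Only 1 of 35 did so in replicate 2, where the share over 3R was 16.3%, and 5 of 35 in the combined list, where it was 50.3%. Bins with no covered base numbered 23 of 35 in replicate 1, against 26.4% of bins over 3R. They numbered 25 of 35 in replicate 2, against 33.4% over 3R, and 20 of 35 in the combined list, against 16.4% over 3R. The fullest bin of the window was the same in both replicates, from 2520000 to 2529999, with 71.3% covered in replicate 1 and 64.2% in replicate 2.

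Within the complex, called sequence was concentrated on the lab side. In the 175 kb next to the lab end, 21.8% was covered in replicate 1 and 12.1% in replicate 2, against 3.59% and 3.19% in the 175 kb next to the Antp end. In percentage points, the lab-side share varied more between replicates, with 16.9% ± 6.81 on the lab side and 3.39% ± 0.284 on the Antp side (SD, n = 2). Covered sequence on the Antp side measured only 6289 bp (replicate 1) and 5585 bp (replicate 2). Why the share varied less on that side was not tested. The lab side exceeded the Antp side by 18.2 points in replicate 1, 8.93 points in replicate 2 and 19.6 points by the combined list. The lab side too lay below the rest of 3R, with differences of -9.05 points in replicate 1 and -12.1 points in replicate 2. On the Antp side the difference from the rest of 3R was -27.2 points in replicate 1 and -21.0 points in replicate 2. This split was chosen after the regions had been seen and carries no test.

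In segments of 50 kb from the lab end, replicate 1 had 30.7%, 15.9%, 26.3%, 3.23%, 5.18%, 7.40% and 0% covered. Replicate 2 had 19.8%, 7.32%, 15.4%, 0%, 4.62%, 6.55% and 0%. Both replicates thus followed the same course, with the segments starting at 0 and 100 kb highest and the last one uncalled. The last 50 kb of the flank before lab had 58.4% in replicate 1 and 46.6% in replicate 2, above the first segment of the window in each. On the Antp side there was no such step, since the first 50 kb of that flank had 6.63% in replicate 1 and 2.60% in replicate 2. The flanks were not uniformly covered, and the outermost 50 kb of the flank before lab were uncalled in both replicates.

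**Figure D3:**
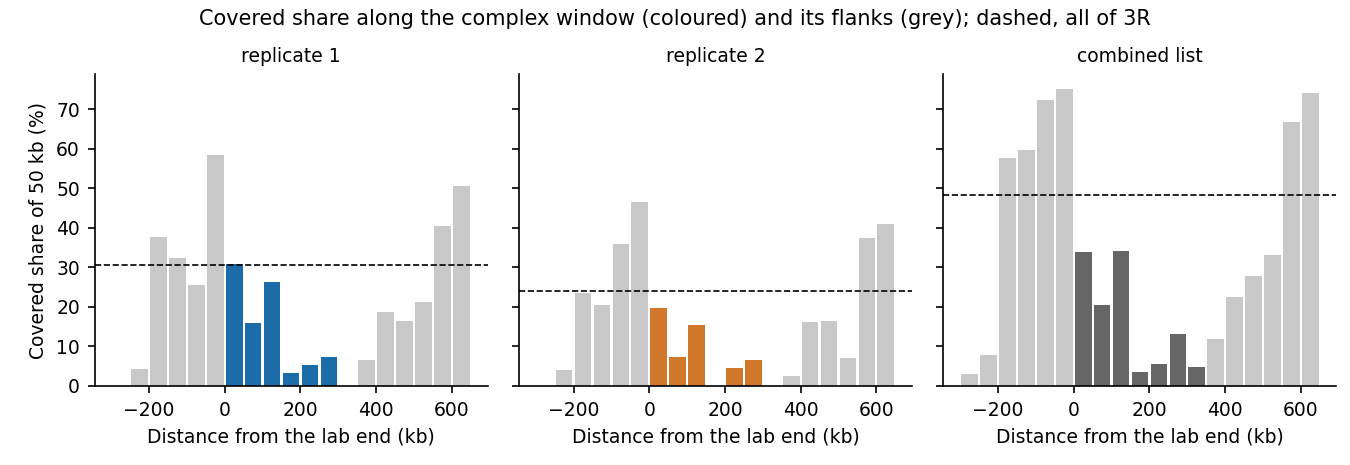
Covered share in percent of 50 kb segments by distance in kb from the lab end, for each list; coloured bars are the complex window, grey bars its flanks, and the dashed line is the covered share of all of 3R. In replicate 1 the last segment before the window has 58.4% and the first of the window 30.7%, while the last of the window and the first after it have 0% and 6.63%.

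The called sequence formed 7 islands, stretches separated by at least 10 kb with no region in any of the 3 lists. Together they span 91.8 kb, or 26.2% of the window. The wide ones on the lab side are 3R:2511874-2539698 (27.8 kb) and 3R:2576643-2605082 (28.4 kb). They hold 78.2% of the window's covered sequence in replicate 1, 79.2% in replicate 2 and 73.6% by the combined list. The island nearer to lab had 66.5% of its length covered in replicate 1, 45.7% in replicate 2 and 80.4% by the combined list. The next had 56.8% in replicate 1, 29.9% in replicate 2 and 70.9% by the combined list.

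Of the narrow islands, 2 were called in every list. At 3R:2689042-2691792, replicate 1 covered 94.1% and replicate 2 83.9%, and at 3R:2734198-2738112 replicate 1 covered 94.5% and replicate 2 83.7%. Another pair was called in replicate 1 and the combined list but not in replicate 2. These lay at 3R:2487426-2489211, in the part of the window nearest to lab, and at 3R:2650010-2651814. The last island, 3R:2771160-2796478, had no region in either replicate and 4 regions in the combined list.

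The widest regions of the complex lay in the island nearer to lab. In replicate 1 the widest region spanned 6443 bp, 3R:2524937-2531379, and also had the highest score of the window, at percentile 81.3 of its list. Replicate 2 covered the same place with regions of 3409 bp (3R:2525170-2528578, percentile 54.9) and 2617 bp (3R:2528700-2531316, percentile 88.5), and the narrower of these had the highest score of the window in that list. The combined list had its widest region and its highest score again at this place, with 8003 bp at 3R:2523522-2531524 and percentile 88.7. No other place in the window had the top score or the top width in any list.

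Next in width in replicate 1 were 4975 bp at 3R:2514638-2519612, 3782 bp at 3R:2596776-2600557, 3699 bp at 3R:2734254-2737952 and 3545 bp at 3R:2534978-2538522. In replicate 2 they were 3277 bp at 3R:2734739-2738015, 2308 bp at 3R:2689130-2691437 and 2097 bp at 3R:2514566-2516662. In the combined list they were 5157 bp at 3R:2514504-2519660, 4495 bp at 3R:2600588-2605082, 4005 bp at 3R:2596548-2600552 and 3915 bp at 3R:2734198-2738112. The narrow island at 3R:2734198-2738112, on the Antp side, thus held 1 of the 5 widest regions of the window in every list. The scores of these regions ranked differently, at percentile 48.4 in replicate 1, 13.0 in replicate 2 and 70.7 of the combined list.

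No region of the window reached a width of 10 kb in any list, where such regions made up 1.02% of all 3R regions in replicate 1, 0.37% in replicate 2 and 4.99% by the combined list. Against such shares, 0 of 16, 0 of 13 and 0 of 23 regions do not set the window apart. In the combined list the flanks held 3 such regions among 75, the widest of 13763 bp.

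The scores of the window's regions lay mostly below the median of their lists. A region's score is the authors' own value on a scale that the headers do not name, so it was used only as a percentile within its list. The median percentile in replicate 1 was 36.5 in the window, against 39.4 in the flanks and 43.9 over 3R. In replicate 2 it was 27.9 in the window, against 31.0 in the flanks and 42.2 over 3R. In the combined list it was 38.5 in the window, against 42.1 in the flanks and 43.1 over 3R. The flanks and 3R thus also had medians below that of their whole list. Of the window's regions, 3 of 16 in replicate 1, 4 of 13 in replicate 2 and 9 of 23 in the combined list scored above the median of their list. In a whole list such regions make up about 50%, by the meaning of a median. The matching counts for the flanks and 3R were not taken, so the counts of the window do not set it apart from its surroundings. In any list 0 reached the top 10%, which with so few regions does not set the window apart. The other high scores were at 3R:2582977-2585260 (percentile 72.5) and 3R:2689081-2691670 (percentile 58.4) in replicate 1. In replicate 2 the next highest scores were at 3R:2689130-2691437 (percentile 76.4) and 3R:2525170-2528578, the region given above, and in the combined list at 3R:2689042-2691792 (percentile 78.5) and 3R:2514504-2519660 (percentile 74.1). In both replicates the median percentiles of window and flanks lay closer together than those of window and 3R.

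**Figure D4:**
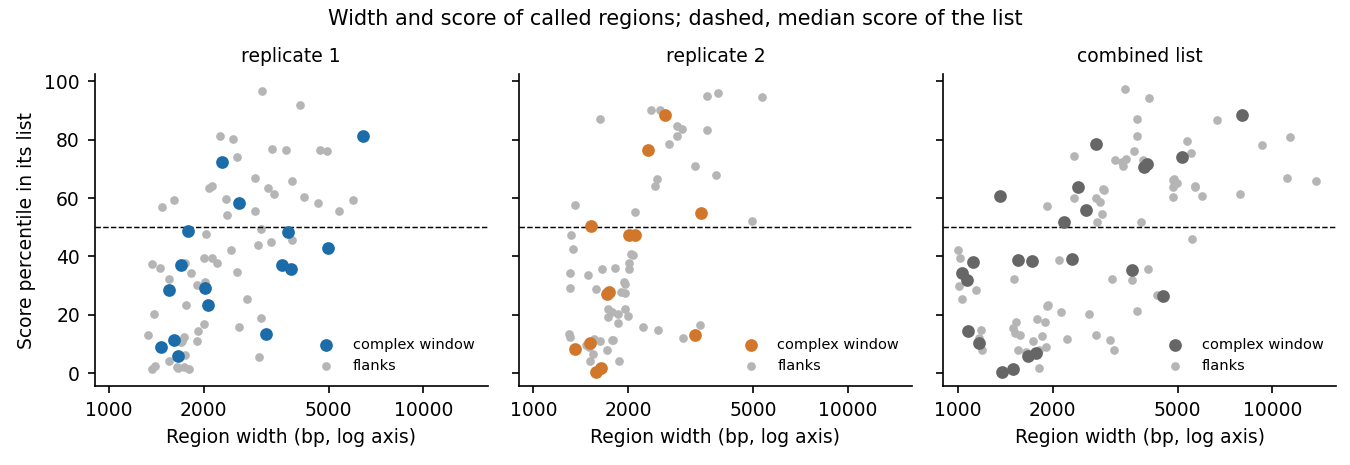
Score percentile within its list against region width in bp (log axis) for regions of the complex window (coloured) and of its flanks (grey), with the median score of the list dashed. The widest region of the window is its highest-scoring one in replicate 1 (percentile 81.3) and in the combined list (percentile 88.7), and none passes percentile 90.

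Most of what replicate 2 called in the complex was called in replicate 1 as well. Their common sequence measured 24.9 kb, or 93.0% of the length covered by replicate 2 and 56.2% of the length covered by replicate 1. Over 3R the common sequence was 76.3% of replicate 2 and 59.9% of replicate 1, so the share of replicate 1 was near that of the arm. The Jaccard index, the share of all sequence called in any of the 2 replicates that both called, was 0.539 in the window, against 0.498 in the flank on the lab side, 0.446 in the flank on the Antp side and 0.505 over 3R. All 13 regions of replicate 2 overlapped a region of replicate 1, where 83.6% of the 3R regions of replicate 2 did. With so few regions, that count does not set the window apart. In the other direction 10 of 16 regions of replicate 1 overlapped replicate 2, where the share over 3R was 70.5%, so the count is near that background. The index has no error of its own, since it needs both replicates.

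Of the 6 regions that replicate 1 alone called, the widest were 2284 bp at 3R:2582977-2585260, 1786 bp at 3R:2487426-2489211 and 1655 bp at 3R:2589438-2591092. The first of these had a score at percentile 72.5, so it was not among the weak calls of its list. Percentiles were 48.6 for the region next to the lab end and 5.75 for the one at 2589438. Every region of the window in replicates 1 and 2 overlapped the combined list, as did 99.8% of their 3R regions. Replicate 2 had no region of its own among its 13 in the window, where 443 of its 2705 regions of 3R did not overlap replicate 1. With so few regions, this does not set the window apart.

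Of the 23 regions of the combined list, 10 overlapped both replicates, where 45.3% of its 3R regions did, and 6 overlapped replicate 1 only, where the share over 3R was 17.9%. None overlapped replicate 2 only, where the share over 3R was 8.88%, and 7 overlapped neither replicate, where the share over 3R was 27.9%. These counts are near the background of the arm. The sequence that the combined list alone called made up 20.7% of its covered length in the window and 25.9% over 3R.

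Long uncalled stretches took up most of the complex. The 8 stretches of at least 10 kb with no region in any list covered 73.8% of the window, against 29.2% of 3R as a whole. They measured 16.8, 22.7, 36.9, 44.9, 37.2, 42.4, 33.0 and 56.4 kb from the lab end onward, in full length, the first and the last reaching into the flanks. The longest, 3R:2796479-2852869, starts within the Antp side and ranked 16 among all such stretches of 3R. The longest that lies wholly inside the window, 3R:2605083-2650009, ranked 31.

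In the replicate lists taken singly, the uncalled stretch that starts on the Antp side was longer and ran on into the flank. Replicate 1 had no region from 2737953 to 2873781, 135.8 kb, and replicate 2 had none from 2738016 to 2874060, 136.0 kb. Of these lengths, 92.0 kb lay in the window in each replicate and the rest in the flank. By full length each ranked 2 on 3R in its list, after a stretch, in the lowest window of the arm described above, of 349.3 kb (12480370 to 12829675) in replicate 1 and 214.1 kb (12615329 to 12829473) in replicate 2. The bounds of the Antp-side stretch differed by 63 and 279 bp between replicates. Replicate 2 also had 84.1 kb uncalled from 2605039 to 2689129, which ranked 14, where replicate 1 had its narrow region at 3R:2650010-2651622. In the combined list the Antp-side stretch was broken by the 4 regions named above, with widths of 1071 to 1495 bp and scores between percentile 0.419 and 38.1 of that list.

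**Figure D5:**
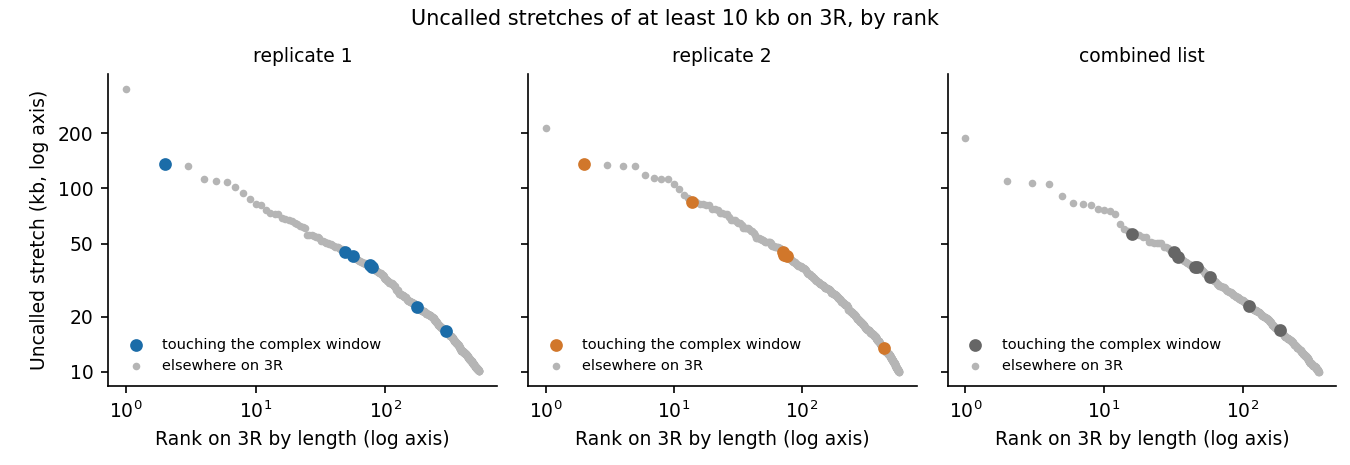
Length in kb of each uncalled stretch of at least 10 kb on 3R against its rank by length, both on log axes, with stretches touching the complex window coloured and others in grey. A stretch on the Antp side has rank 2 in replicate 1 (135.8 kb) and replicate 2 (136.0 kb), and the longest touching the window in the combined list has rank 16 (56.4 kb).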

How the data were processed

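Enriched regions of H3K27me2 were analysed in 2 ChIP samples; the 2 inputs have no list analysed here. Per the file headers, the authors deposited regions of significant enrichment on FlyBase release 5, with positions counted from 1 and a score of unnamed scale. Per the submitters' processing notes, Bowtie 0.12.7 was used; the sources used here name no caller, threshold or pooling step for the combined list. Covered share is the union of regions divided by length, clipped to the window or flank. Bins of 10 kb counted as covered from 50% of their length. Values are given per replicate and as mean ± SD, and the combined list has no error. The members, lists and comparisons were chosen with earlier results of these data known. A rule set most named regions: the 5 widest and 3 highest-scoring of each list in the window, and the 3 widest called in 1 replicate alone. It also set the stretches of at least 10 kb uncalled in every list, and the extreme 3R windows of the combined list. Islands, the fullest bin, uncalled stretches of single lists, other low stretches of 3R and the lowest windows touching the complex were named outside it. Region scores were compared only as percentiles within a list. Interval code was tested on simulated data. Python 3.11.15, numpy 2.4.6, pandas 2.3.3 and matplotlib 3.10.9 were used. No genome or annotation of release 5 was used, so genes were not placed and no sequence is printed. Alternatives covered score thresholds, merging, window, flank and bin sizes, equal region numbers, all major arms and leaving out each replicate.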

Additional observations from a re-analysis of the deposited data

How the results depend on the processing

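The differences of the window from its flanks and from the rest of 3R kept their sign under every alternative run for them. When regions scoring below their list's median were dropped, the covered share of the window was 3.02%, its difference -7.90 points from the flanks and -12.7 points from the rest of 3R, its percentile among 3R windows 1.00, the Jaccard index 0.649, the mean number of covered 10 kb bins 0.5 (2 as reported) and the lab-side excess 3.25 points. The combined list gave 16.5%, -26.1 points, -32.3 points and 5 bins. The difference from the flanks was -13.8 points with regions less than 1 kb apart merged and -12.6 points with the window shortened by 50 kb at each end. It was -16.1 points with flanks of 100 kb and -12.2 points with equal numbers of top-scoring regions. In replicates 1 and 2 these were, in the same order, -13.9 and -13.7, -12.8 and -12.4, -14.6 and -17.6, and -11.1 and -13.3 points. The shortened window was at percentile 2.64, with 0.5 bins and a Jaccard index of 0.491; against windows of all 5 major arms the percentile was 4.99. The index was 0.537 with merging and 0.601 with equal numbers. As means of the replicates, 7 of 35 bins counted as covered from 20% of their length (8 in replicate 1 and 6 in replicate 2) and 0 from 80%. In bins of 5 kb, of which the window holds more, the mean was 6 (7 in replicate 1 and 5 in replicate 2). Shares over 3R were not taken at these settings, so these counts have no background beside them. The cause of the shifts between settings was not tested. With 2 replicates, leaving out a replicate only returns the values of the other, so it is no separate check. These were 7.66% to 12.7% covered, -13.3 points from the flanks each time and -18.1 to -16.5 points from the rest of 3R. The percentiles were 1.51 to 2.00, with 1 to 3 bins and a lab-side excess of 8.93 to 18.2 points. No paired analysis was possible because no region list of the inputs was analysed, and equal numbers do not mark a ChIP and its own input in the labels. Depth is unknown and limits every statement on uncalled sequence.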

Other observations

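The lowest-covered stretch of the length of the complex was not centred on the window. Among 350 kb windows touching it, the lowest share lay at 3R:2605001-2955001 in replicate 1 (6.74%) and at 3R:2531001-2881001 in replicate 2 (5.09%), both shifted toward and past the Antp end, against 12.7% and 7.66% in the window as defined. The combined list had its lowest at 3R:2606001-2956001 (9.73%), nearly the placement of replicate 1. On the Antp side, 45.9% of the sequence covered in the combined list was covered in neither replicate, against 14.3% on the lab side and 25.9% over 3R. The Antp-side share is 5380 of 11732 bp. Most of it lies in the 4 regions that break the uncalled stretch there, which are narrow and score between percentile 0.419 and 38.1 of that list. The Jaccard index of the replicates was 0.869 on the Antp side, where each called only 2 regions at shared places, and 0.487 on the lab side.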
